A study of Mus musculus with 12 samples.

Results

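Oxidative phosphorylation takes place in the inner mitochondrial membrane, where complexes I to IV pass electrons to oxygen and complex V, the ATP synthase, uses the resulting proton gradient to make ATP. Complex I is the NADH dehydrogenase, complex II the succinate dehydrogenase of the citric acid cycle, complex III the cytochrome bc1 complex and complex IV the cytochrome c oxidase. Most of their subunits come from nuclear genes, a smaller core comes from mitochondrial DNA, and complex II is wholly nuclear-encoded. Skin holds keratinocytes, hair follicles, fat, vessels and a thin sheet of striated muscle, and these tissues differ in mitochondrial content and in the isoforms of complex IV that they use.

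The nuclear-encoded respiratory chain subunits described here were 82 protein-coding genes out of 53379 gene IDs, chosen by symbol alone from GENCODE M21. The rule itself uses no measured value, but it was set with earlier results of these data known. They comprised 37 genes of complex I, 4 of complex II, 8 of complex III, 16 of complex IV and 17 of complex V. Ndufa4 and its paralogue Ndufa4l2 carry complex I names and were kept there, although Ndufa4 is now usually counted as a subunit of complex IV. Of the 82 genes, 81 passed the filter on low counts. The exception was Cox8c, a testis isoform of complex IV, with 2 counts over the Nf1-KO injured libraries, 1 over the control injured libraries, 5 over the Nf1-KO uninjured libraries and 3 over the control uninjured libraries.

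The study sequenced RNA of whole skin from mice aged 3 months on a mixed C57BL/6 and B6D2 background, in 12 libraries that fall into 4 groups of 3. Nf1-KO mice were labelled Prss56Cre,R26tdTom,Nf1flox/- and control mice Prss56Cre,R26tdTom, so both genotypes carried the Cre and the tdTomato reporter. The Cre driver marks descendants of boundary cap cells, a minority of skin cells, while the null Nf1 allele of Nf1-KO mice is present in every cell. The groups were Nf1-KO injured and control injured skin, both 14 days after injury, and Nf1-KO uninjured and control uninjured skin.

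Library totals ran from 8817013 to 16809687 counts. Nf1 itself was at 8.75 to 15.8 TMM CPM in Nf1-KO injured, 9.56 to 16.6 in control injured, 8.96 to 9.96 in Nf1-KO uninjured and 9.21 to 14.3 in control uninjured libraries, and was called in no comparison. TMM CPM are CPM after edgeR's correction for library composition. Injured libraries of both genotypes carried the female marker Xist, at 436 to 627 CPM against 0.709 to 2.95 in uninjured libraries, and uninjured libraries the male marker Ddx3y, so injury and sex cannot be told apart in any injury comparison below. Between 25188 and 34592 genes had a count in an injured library, against 38490 to 43311 in an uninjured one. Ribosomal RNA-like genes took 4.36% of counts in Nf1-KO injured 1, 5.35% in Nf1-KO injured 3 and 5.37% in control injured 1, against 2.32% to 2.79% in the other injured libraries and 1.2% to 3.03% in uninjured ones.

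Respiratory chain transcripts were higher in injured than in uninjured skin of both genotypes, in every complex, and most of the 81 tested genes passed the test. In Nf1-KO skin 56 rose and 2 fell with a median log2 fold change of 0.85, and in control skin 67 rose and 1 fell with a median of 1.34. Calls were made at an adjusted p under 0.05 in edgeR's 2-sided quasi-likelihood test with Benjamini-Hochberg adjustment over all 23635 genes tested. Of all those genes, 19.1% were called higher and 18.4% lower in Nf1-KO skin, and 22.8% higher and 32.5% lower in control skin. All injured libraries lay above all uninjured ones for 53 subunits in Nf1-KO skin, against 23.6% of all genes, and for 68 in control skin, against 25.8%. They lay below for 2 in each genotype, against 27.9% of all genes in Nf1-KO skin and 36.6% in control skin. The median log2 fold changes of all genes were -0.09 in Nf1-KO skin and -0.21 in control skin. Under median-of-ratios scaling the median of all genes in Nf1-KO skin moved by -0.11 to -0.20, and the subunits' median lay 0.96 above it, against 0.94 with TMM. Without the 3 injured libraries of high ribosomal RNA-like share, the subunits' median was 0.72 in Nf1-KO skin, against -0.23 over all genes. Only 1 Nf1-KO injured library was left in that fit. In control skin 75 subunits rose and 1 fell, with a median of 1.44, against -0.33 over all genes. There 6066 of all 27556 genes were called higher and 9332 lower.

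Summed over all 82 genes, the libraries held 23627, 20700.5 and 22430.2 TMM CPM in Nf1-KO injured skin and 23570.5, 22401 and 21679.6 in control injured skin. The uninjured sums were 10970.1, 9935 and 17491 in Nf1-KO skin and 9551, 8836 and 10594 in control skin. Every injured library therefore lay above every uninjured library, and within the uninjured libraries Nf1-KO uninjured 3 stood far above the other 5. The injured mean was 1.74 times the uninjured mean in Nf1-KO skin and 2.33 times in control skin. Since whole skin was sequenced, fewer cells of a type and less RNA per cell cannot be told apart for any of these genes.

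**Figure D1:**
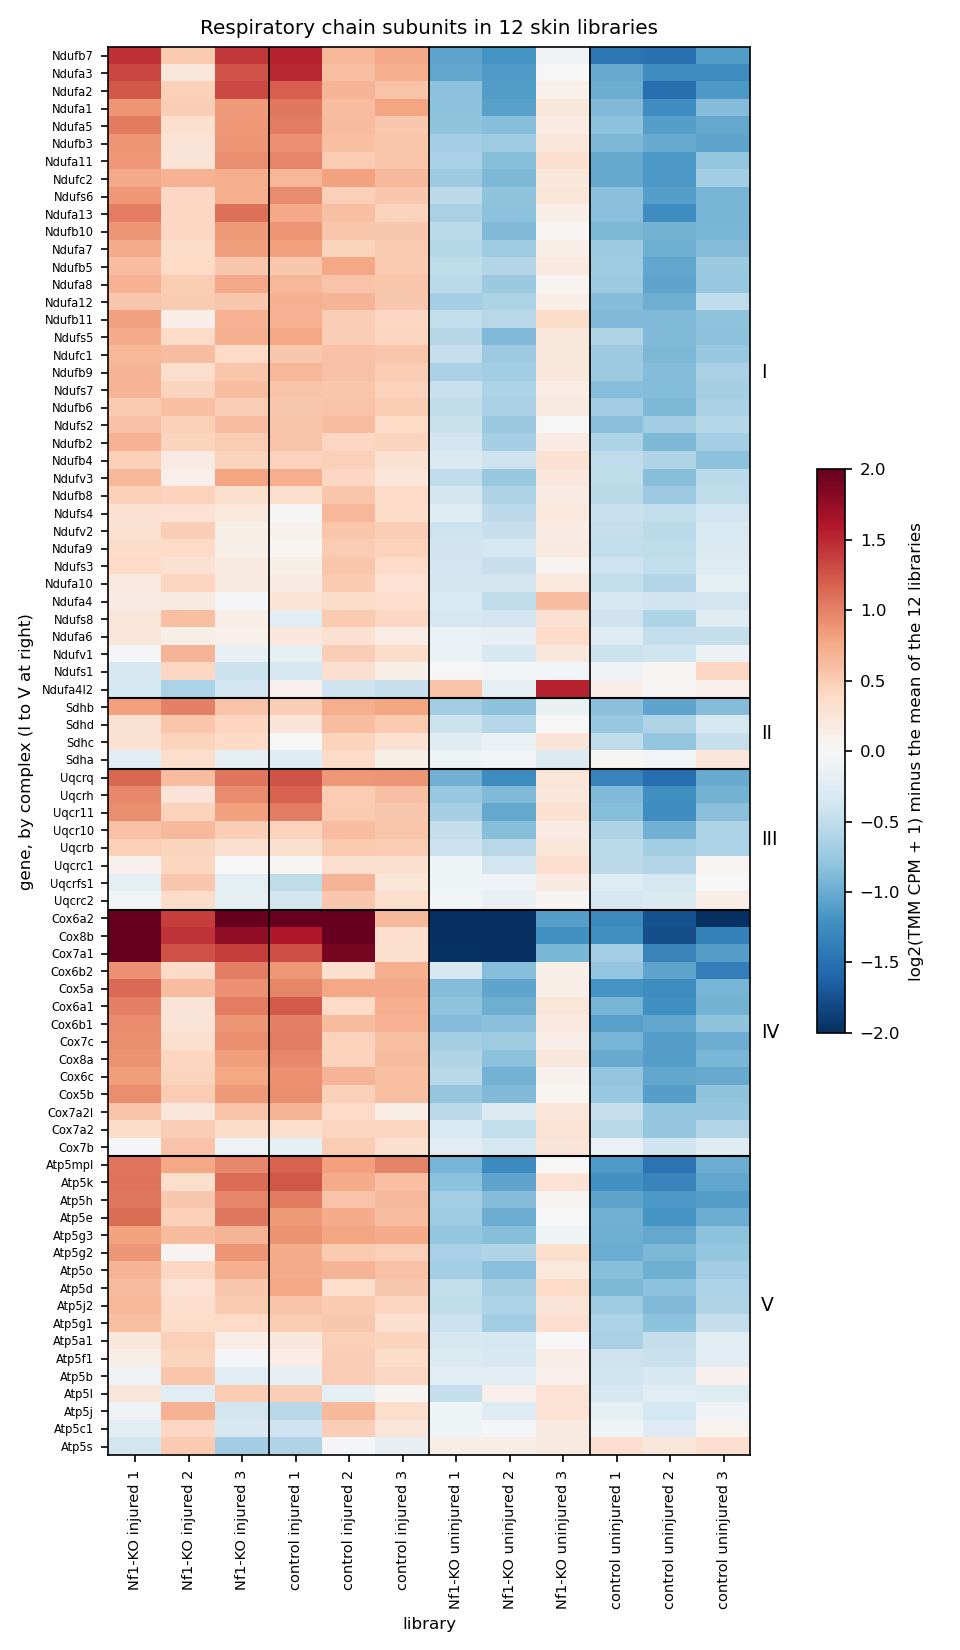
Each row is 1 of 80 subunits (Cox7b2 and Cox8c, at 0 counts in several libraries, are left out) and each column 1 library; colour gives log2(TMM CPM + 1) minus the mean of the 12 libraries, capped at 2 either way, with complexes I to V separated by lines. Injured libraries are red for most rows and uninjured libraries blue, Nf1-KO uninjured 3 is paler or red for most rows, and the 3 muscle isoforms Cox6a2, Cox8b and Cox7a1 have the widest range.

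Both injury comparisons called the same 56 genes higher, a further 11 were called in control skin only, and none was called higher in Nf1-KO skin alone. The 11 were Ndufa4, Ndufa6, Ndufa9, Ndufa10, Ndufb4, Ndufs4, Ndufs8, Ndufv2, Sdhc, Atp5a1 and Atp5f1. The 12 genes called in neither comparison were Ndufs1, Ndufv1, Sdha, Uqcrc1, Uqcrc2, Uqcrfs1, Cox7b, Atp5b, Atp5c1, Atp5j, Atp5l and Atp5s. They include the flavoprotein of complex II, both core proteins of complex III and the catalytic beta subunit of complex V. The log2 fold change was larger in control than in Nf1-KO skin for 74 of 81 genes, but no gene passed the test of that difference (described below).

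**Figure D2:**
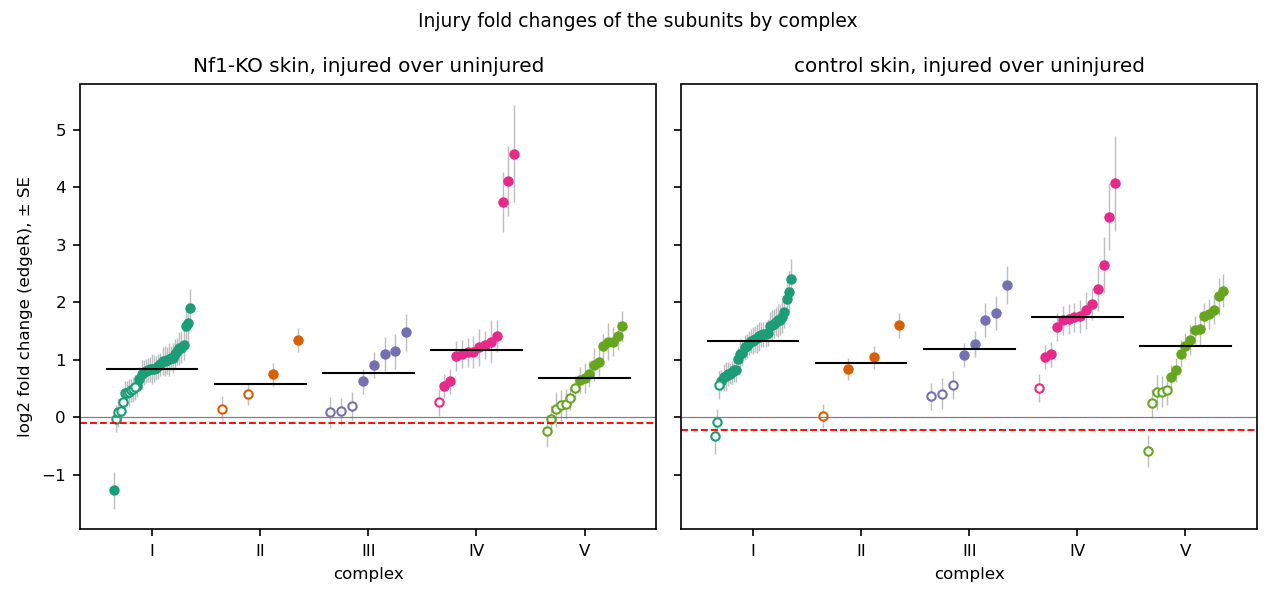
Points are the log2 fold changes of single subunits with their standard errors, injured over uninjured, for Nf1-KO skin at left and control skin at right; filled points passed the test, open points did not, black bars are medians of a complex and the red dashed line is the median of all genes tested. Cox7b2 lies off the scale and is left out; nearly all points lie above the red line in both panels, with the 3 muscle isoforms at the top of complex IV.

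Complex I is built from 7 nuclear-encoded core subunits, which carry the flavin and the iron-sulfur clusters, and many accessory subunits. In Nf1-KO skin 23 of 30 accessory genes rose and 1 fell, and in control skin 29 of 30 rose. Of the 7 core genes, 3 rose in Nf1-KO skin and 5 in control skin. The median log2 fold change of accessory genes was 0.87 in Nf1-KO and 1.42 in control skin, against 0.52 and 0.76 for core genes, in the same order of genotypes. Their annotated transcripts differ in length as well, with medians of 747.5 bases for accessory and 1623 for core genes. The part of length in this split was not tested.

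The largest rises in complex I were those of the accessory genes Ndufb7, Ndufa3 and Ndufa2 in both genotypes. Ndufb7, a subunit at the intermembrane-space side of the membrane arm, had 331, 172 and 321 TMM CPM in Nf1-KO injured libraries, against 56.5, 51.6 and 113 in Nf1-KO uninjured libraries. In control skin it had 347, 189.6 and 202 TMM CPM in injured libraries, against 42.9, 41.8 and 54.6 in uninjured libraries. The injured and uninjured groups did not overlap in either genotype, and injured libraries 1 and 3 of Nf1-KO skin and 1 of control skin were the high ones. Its log2 fold change was 1.90 ± 0.34 (SE) in Nf1-KO skin, adjusted p = 0.000632, and 2.41 ± 0.34 in control skin, adjusted p = 0.000103 (edgeR). Ndufa3 changed by 1.64 ± 0.35 on the log2 scale in Nf1-KO skin and 2.18 ± 0.36 in control skin. For Ndufa2 the log2 fold changes were 1.59 ± 0.31 in Nf1-KO skin and 2.06 ± 0.32 in control skin. The same 3 injured libraries were highest for Ndufa3 and Ndufa2.

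The core subunits Ndufs1 and Ndufv1, which hold iron-sulfur clusters and the flavin of the NADH-oxidising arm, did not pass the test in either genotype. Ndufs1 was at 74.8, 125 and 70.0 TMM CPM in Nf1-KO injured libraries, against 93.5, 90.4 and 91.3 in Nf1-KO uninjured libraries. Control libraries gave 74.6, 118 and 102 TMM CPM after injury, against 90.2, 96.8 and 126 without it. The groups overlapped, and within the injured groups libraries 1 and 3 of Nf1-KO skin and 1 of control skin were the low ones, the reverse of Ndufb7. Those 3 libraries are the ones with the high ribosomal RNA-like share.

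Ndufa4 had the highest level per kilobase in complex I, at a mean of 806 TMM CPM per kb of transcript in Nf1-KO injured, 944 in control injured, 757 in Nf1-KO uninjured and 577 in control uninjured skin. It rose in control skin, with a log2 fold change of 0.71 ± 0.25 and adjusted p = 0.0238 (edgeR), and had a log2 fold change of 0.09 ± 0.25 in Nf1-KO skin. Without control uninjured 2 its value in control skin was 0.71 and was not called. Its hypoxia-inducible paralogue Ndufa4l2 was the only complex I gene that fell. Ndufa4l2 had 105, 85.3 and 102 TMM CPM in Nf1-KO injured libraries, against 199, 116 and 390.0 in Nf1-KO uninjured libraries. Control libraries held 141, 99.8 and 96.8 TMM CPM after injury, against 146, 135 and 143 without injury. The groups were apart in Nf1-KO skin and overlapped in control skin, and Nf1-KO uninjured 3 was the highest of all 12 libraries. The log2 fold change was -1.27 ± 0.32 in Nf1-KO skin, adjusted p = 0.00668, and -0.33 ± 0.32 in control skin, adjusted p = 0.393 (edgeR). Without Nf1-KO uninjured 3 the fall in Nf1-KO skin was -0.67, adjusted p = 0.0394. As a share of the pair's summed level per kilobase, Ndufa4l2 made up 11.8, 9.76 and 12.9% in Nf1-KO injured and 14.3, 9.97 and 9.75% in control injured libraries. In uninjured skin the share was 26.1, 19.1 and 26.8% in Nf1-KO and 21.1, 20.3 and 21% in control libraries, so the share was lower in every injured library than in every uninjured one.

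Complex II has 4 subunits, the flavoprotein Sdha, the iron-sulfur protein Sdhb and the membrane anchors Sdhc and Sdhd. In Nf1-KO skin 2 of 4 rose (Sdhb and Sdhd) and in control skin 3 of 4 (Sdhb, Sdhc and Sdhd). Sdhb, the most abundant of the 4 per kilobase, had 329, 376 and 275 TMM CPM in Nf1-KO injured libraries, against 114, 105 and 167 in Nf1-KO uninjured libraries. Control skin gave 262, 309 and 323 TMM CPM in injured libraries, against 104, 89 and 102 in uninjured libraries. All injured libraries lay above all uninjured ones, with log2 fold changes of 1.34 ± 0.21 in Nf1-KO skin, adjusted p = 0.000177, and 1.60 ± 0.21 in control skin, adjusted p = 4.34e-05 (edgeR). Sdhc had log2 fold changes of 0.41 ± 0.19 in Nf1-KO and 0.85 ± 0.19 in control skin, and Sdhd of 0.75 ± 0.20 in Nf1-KO and 1.04 ± 0.20 in control skin.

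Sdha did not pass the test in either genotype. It had 155, 230.0 and 159 TMM CPM in Nf1-KO injured libraries, against 168, 172 and 149 in Nf1-KO uninjured libraries. In control skin the values were 149.6, 235 and 195 TMM CPM in injured libraries, against 183, 173 and 212 in uninjured libraries. The groups overlapped in both genotypes, and the log2 fold changes were 0.15 ± 0.21 in Nf1-KO and 0.03 ± 0.21 in control skin. The annotated Sdha transcript is 2900 bases long, against 1142 bases for Sdhb, 1231 for Sdhd and 3171 for Sdhc.

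In complex III the small subunits and the large ones divided. The median transcript length was 535 bases for the small subunits and 1653 for the core and Rieske proteins. Whether length had a part in this division was not tested. All 5 small subunits (Uqcr10, Uqcr11, Uqcrb, Uqcrh and Uqcrq) rose in both genotypes, with median log2 fold changes of 1.10 in Nf1-KO and 1.69 in control skin. None of the core proteins Uqcrc1 and Uqcrc2 and the Rieske iron-sulfur protein Uqcrfs1 passed the test in either genotype, with medians of 0.11 in Nf1-KO and 0.41 in control skin. Uqcrq, a ubiquinone-binding small subunit, had 398, 275 and 374 TMM CPM in Nf1-KO injured libraries, against 90.9, 74.2 and 211 in Nf1-KO uninjured libraries. Control libraries had 426, 325 and 329 TMM CPM after injury, against 70.0, 61.5 and 88.4 without it. The injured libraries were all above the uninjured ones, and Nf1-KO uninjured 3 was far above the other uninjured libraries. The log2 fold changes of Uqcrq were 1.48 ± 0.32 in Nf1-KO skin, adjusted p = 0.00233, and 2.30 ± 0.33 in control skin, adjusted p = 8.28e-05 (edgeR).

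The hinge protein gene Uqcrh changed by 1.15 ± 0.30 in Nf1-KO and 1.81 ± 0.30 in control skin on the log2 scale. Uqcr11, the most abundant gene of complex III per kilobase, changed by 1.10 ± 0.29 in Nf1-KO and 1.69 ± 0.30 in control skin, and by 0.84 without a call in Nf1-KO skin when Nf1-KO uninjured 2 was left out. By contrast, Uqcrfs1 had 131, 215 and 129 TMM CPM in Nf1-KO injured libraries, against 139, 140.5 and 168 in Nf1-KO uninjured libraries. Its control values were 103, 238 and 174 TMM CPM in injured libraries, against 123, 116 and 148 in uninjured libraries. The groups overlapped, with Nf1-KO injured 1 and 3 and control injured 1 below, and the other injured libraries above, every uninjured library of their genotype. Leaving out those 3 libraries of high ribosomal RNA-like share, all 8 complex III genes rose in control skin, where 6066 of all 27556 genes were called higher. In Nf1-KO skin a single injured library then remained, and its calls are not given.

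Complex IV showed the widest range of changes. In Nf1-KO skin 13 of 15 tested genes rose and 1 fell, and in control skin also 13 rose and 1 fell. Among the 10 forms found in most tissues, 9 rose in both genotypes and Cox7b did not pass the test, with medians of 1.12 in Nf1-KO and 1.70 in control skin. Cox6a1, the most abundant complex IV gene per kilobase, had 1033, 613 and 1036 TMM CPM in Nf1-KO injured libraries, against 292, 259 and 603 in Nf1-KO uninjured libraries. Control skin had 1189.9, 675 and 849 TMM CPM in injured libraries, against 266, 217 and 265 in uninjured libraries. Injured and uninjured groups were apart in both genotypes, though Nf1-KO injured 2 and Nf1-KO uninjured 3 lay close to each other. Its log2 fold changes were 1.22 ± 0.32 in Nf1-KO skin, adjusted p = 0.00795, and 1.86 ± 0.33 in control skin, adjusted p = 0.000334 (edgeR). Cox6b1, Cox7a2 and Cox8a had log2 fold changes of 1.14, 0.55 and 1.07 in Nf1-KO skin and of 1.76, 1.05 and 1.71 in control skin. For Cox7a2l, which takes part in joining complexes III and IV, they were 0.63 in Nf1-KO and 1.10 in control skin. In Nf1-KO skin the call of Cox7a2 ended in 6 of the 12 fits that left out 1 library, with values of 0.38 to 0.62. The library left out was Nf1-KO injured 1 or 2, control injured 3, Nf1-KO uninjured 1 or 2, or control uninjured 2. The call of Cox7a2l ended without Nf1-KO injured 1 or 3 or Nf1-KO uninjured 1 or 2, with values of 0.45 to 0.62. With the transcript length trend removed, Cox7a2 turned sign, at -0.053 in Nf1-KO and -0.033 in control skin. Cox7b had log2 fold changes of 0.26 ± 0.24 in Nf1-KO and 0.51 ± 0.24 in control skin.

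The muscle isoforms Cox6a2, Cox7a1 and Cox8b, which replace Cox6a1, Cox7a2 and Cox8a in heart and skeletal muscle, had the largest rises of all subunits in both genotypes. Cox6a2 had 176, 69.6 and 139 TMM CPM in Nf1-KO injured libraries, against 1.79, 2.68 and 11.7 in Nf1-KO uninjured libraries. In control skin it stood at 131, 206 and 41.6 TMM CPM in injured libraries, against 10.2, 7.06 and 5.49 in uninjured libraries. The groups were far apart in both genotypes, and within them control injured 3 and Nf1-KO uninjured 1 and 2 were the low libraries. The log2 fold changes of Cox6a2 were 4.58 ± 0.85 in Nf1-KO skin, adjusted p = 0.00321, and 4.07 ± 0.82 in control skin, adjusted p = 0.00292 (edgeR). Cox8b changed by 4.11 ± 0.61 in Nf1-KO and 3.49 ± 0.58 in control skin on the log2 scale. Cox7a1, also found in brown fat, changed by 3.74 ± 0.52 in Nf1-KO and 2.65 ± 0.49 in control skin.

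Per kilobase, Cox6a2 made up 12.5, 8.71 and 10.1% of the summed level of Cox6a1 and Cox6a2 in Nf1-KO injured libraries, against 0.512, 0.863 and 1.6% in Nf1-KO uninjured libraries. The share was 8.44, 20.4 and 3.95% in control injured libraries, against 3.1, 2.65 and 1.71% in control uninjured libraries. Control injured 2 had the highest share and control injured 3 the lowest among injured libraries, and the same 2 libraries held these ranks for Cox8b within Cox8a and Cox8b, at 21.9% and 4.89%. For Cox7a1 within Cox7a1 and Cox7a2, control injured 3 was again lowest, at 4.9%. There Nf1-KO injured 1 was highest, at 15.8%, above control injured 2 at 14.3%. The ubiquitous form thus remained the larger part of each pair in every library.

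Skeletal muscle marker genes moved with these isoforms. Of 22 muscle genes, 21 rose in Nf1-KO skin and 19 in control skin, with median log2 fold changes of 3.92 and 2.70, in that order. Their summed level was 9074, 6102 and 6702 TMM CPM in Nf1-KO injured libraries, against 259, 227 and 872 in Nf1-KO uninjured libraries. Control libraries summed to 6231, 14754 and 3546 TMM CPM in injured skin, against 1642, 1023 and 1464 in uninjured skin. The order of libraries within each injured group was that of each of the 3 isoforms, with control injured 2 highest and control injured 3 lowest. The part of muscle in the rise of the isoforms was not tested. Without the 3 muscle isoforms, 53 of 78 genes rose in Nf1-KO skin and 64 of 78 in control skin, with medians of 0.84 in Nf1-KO and 1.33 in control skin.

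**Figure D3:**
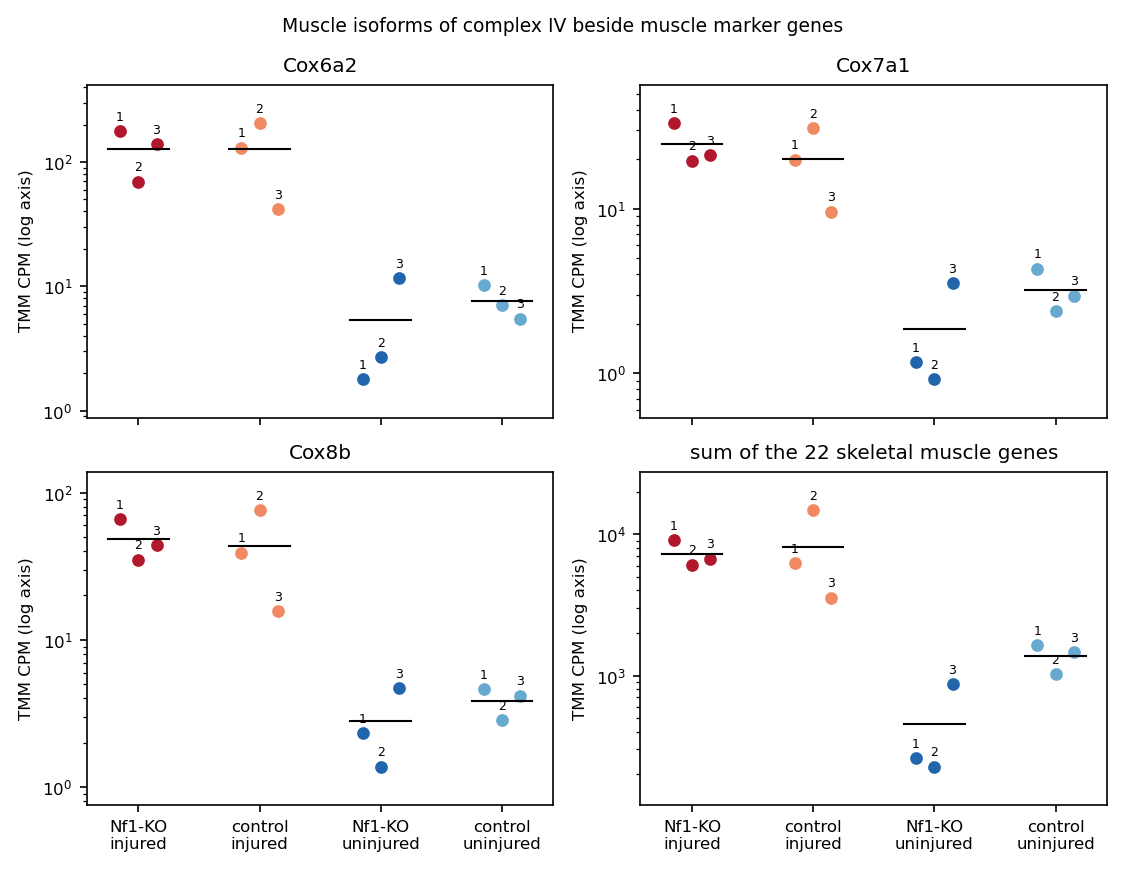
TMM CPM on a log axis of Cox6a2, Cox7a1 and Cox8b and of the sum of 22 skeletal muscle genes in each library; points are numbered by replicate and black bars are group means of 3. In all 4 panels every injured library lies above every uninjured one, Nf1-KO uninjured 3 lies above Nf1-KO uninjured 1 and 2, and control injured 2 lies above control injured 1 and 3.

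The testis isoforms of complex IV were at low levels. Cox7b2 fell in both genotypes: it had 1, 2 and 8 counts in the Nf1-KO injured libraries, against 16, 44 and 16 in the Nf1-KO uninjured libraries. Control injured libraries had 0 counts each, against 27, 40 and 17 in control uninjured libraries, so the level was at least 29.8-fold lower with a floor of 3 counts over the group. In Nf1-KO skin its log2 fold change was -2.86 ± 0.80, adjusted p = 0.0133 (edgeR), and without Nf1-KO uninjured 2 it was -2.36 and no longer called. Cox6b2 rose, with log2 fold changes of 1.31 ± 0.37 in Nf1-KO and 2.24 ± 0.40 in control skin, and made up less than 2% of the pair with Cox6b1 in every library. Its call in Nf1-KO skin ended without Nf1-KO uninjured 2 (1.02) and under a ribosomal RNA-like covariate (0.90). Of 6 sperm lineage genes 2 were tested, and both fell in control skin and neither passed the test in Nf1-KO skin. The sum of the 6 was 0.141 to 0.688 TMM CPM in Nf1-KO injured and 0.0668 to 0.19 in control injured libraries, against 0.627 to 2.76 in Nf1-KO uninjured and 0.947 to 3.68 in control uninjured libraries. Olfactory and vomeronasal receptor genes averaged 0.00255 to 0.0607 CPM per kb in injured libraries and 0.108 to 0.379 in uninjured ones, and their part in the fall of Cox7b2 was not tested.

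Complex V joins a catalytic F1 head (Atp5a1, Atp5b, Atp5c1, Atp5d, Atp5e) to a membrane part with a ring of c subunits, made from the 3 genes Atp5g1, Atp5g2 and Atp5g3. In Nf1-KO skin 10 of 17 complex V genes rose and in control skin 12 of 17. The 3 c-ring genes and 3 of 4 other small membrane subunits rose in both genotypes, whereas 2 of 5 F1 genes rose in Nf1-KO and 3 of 5 in control skin. Here too lengths differ, with median transcripts of 731 bases for c-ring, 457.5 for other small membrane and 1166 for F1 genes. Their part was not tested. Atp5mpl, a small membrane-bound subunit, had 311, 253 and 289 TMM CPM in Nf1-KO injured libraries, against 77.2, 60.6 and 147 in Nf1-KO uninjured libraries. Control skin held 335, 263 and 296 TMM CPM in injured libraries, against 67.2, 52.7 and 73.9 in uninjured libraries. No injured library overlapped an uninjured one, and the log2 fold changes were 1.58 ± 0.27 in Nf1-KO skin, adjusted p = 0.000365, and 2.20 ± 0.28 in control skin, adjusted p = 2.56e-05 (edgeR).

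Atp5k, the e subunit, changed by 1.31 ± 0.32 in Nf1-KO and 2.11 ± 0.32 in control skin on the log2 scale, and the F1 epsilon gene Atp5e by 1.42 ± 0.25 in Nf1-KO and 1.80 ± 0.25 in control skin. Atp5h, of the peripheral stalk, changed by 1.32 ± 0.25 in Nf1-KO and 1.87 ± 0.25 in control skin. Atp5g3, the most abundant complex V gene per kilobase, had 741, 654 and 678 TMM CPM in Nf1-KO injured libraries, against 246, 235 and 400.0 in Nf1-KO uninjured libraries. Its control libraries had 786, 732 and 709.9 TMM CPM after injury, against 214, 208 and 238 without injury. All injured libraries were above all uninjured ones for this c-ring gene, with log2 fold changes of 1.23 ± 0.22 in Nf1-KO and 1.76 ± 0.23 in control skin. Atp5g1 changed by 0.65 in Nf1-KO and 1.10 in control skin, and Atp5g2 by 0.92 and 1.54 in the same order. Without Nf1-KO uninjured 2 the values in Nf1-KO skin were 0.44 for Atp5g1 and 0.74 for Atp5g2, neither of them called.

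The catalytic beta subunit Atp5b did not pass the test. It had 899, 1413 and 823 TMM CPM in Nf1-KO injured libraries, against 824, 825 and 1030.3 in Nf1-KO uninjured libraries. Control values were 858, 1358 and 1286 TMM CPM in injured libraries, against 731, 769 and 1015 in uninjured libraries. The groups overlapped, with Nf1-KO injured 1 and 3 and control injured 1 again low within the injured groups, and the log2 fold changes were 0.23 ± 0.26 in Nf1-KO and 0.48 ± 0.26 in control skin. Atp5c1, the F1 gamma subunit, had log2 fold changes of -0.03 in Nf1-KO and 0.24 in control skin, and Atp5s of -0.24 in Nf1-KO and -0.58 in control skin. The count of Atp5l is uncertain, since near-identical copies of its transcript held 30.8% as many counts as the gene itself.

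Promoter sequences are given for the muscle isoforms Cox8b and Cox7a1, for the ubiquitous Cox6a1, and for Sdhd, Atp5h and Atp5k, which also rose, to set muscle isoforms beside subunits found in most tissues. Of the 82 genes, 66 matched an entry in the RefSeq promoter table for GRCm38.p6, which holds the 250 bases before and the 50 bases after each annotated start. The NRF1 motif of nuclear respiratory factor 1, a regulator of respiratory chain genes, occurred in 16 of the 66 promoters (24.2%), against 4.6% of all 32851 promoters in the table. The 66 are 1 promoter per gene, the entry nearest to the GENCODE start. The 32851 are all entries without such a choice, so the shares of the 66 and of all are not drawn alike. The ETS motif read by GABP (CCGGAAG) occurred in 22.7% of the 66 and 8.86% of all, and the YY1 motif ATGGCGG in 12.1% and 4.05%. For the estrogen-related receptor motif AAGGTCA the shares were 12.1% and 4.72%, for the E-box CAGCTG of myogenic factors 9.09% and 16.3%, and for the TATA box TATAAA 10.6% and 13.6%. All motifs were searched on both strands of the 300 bases, and no motif is contained in another. A match only says that these letters stand in the window. The 250 bases before each start are printed 5′ to 3′ on the strand of the gene, with letters that match a motif in capitals. The NRF1 motif and the ETS motif are both seen in Cox6a1, Sdhd and Atp5h, the NRF1 motif in Atp5k, the E-box in Cox8b, and none of the 6 motifs in the printed bases of Cox7a1. Cox6a1, Sdhd, Atp5h and Atp5k all belong to the 16 with an NRF1 motif, so they do not stand for the 66. Ndufb7, Sdhb, Uqcr11, Uqcrh and Atp5e also rose and had no NRF1 motif. Sdha and Uqcrc1 had the NRF1 motif and were called in neither genotype. The 50 bases that are not printed hold further matches, ETS and the estrogen-related receptor motif in Atp5k, the receptor motif also in Sdhd, and the TATA box in Cox8b.
Cox8b: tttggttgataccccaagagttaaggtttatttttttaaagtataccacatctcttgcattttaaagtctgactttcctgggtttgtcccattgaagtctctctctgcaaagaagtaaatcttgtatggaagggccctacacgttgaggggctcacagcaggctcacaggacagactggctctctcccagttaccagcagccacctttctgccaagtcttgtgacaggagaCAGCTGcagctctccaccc
Cox7a1: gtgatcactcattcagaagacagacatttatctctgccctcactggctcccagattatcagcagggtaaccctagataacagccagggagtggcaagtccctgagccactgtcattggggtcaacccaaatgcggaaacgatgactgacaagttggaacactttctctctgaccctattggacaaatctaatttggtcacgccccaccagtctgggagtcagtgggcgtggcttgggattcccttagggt
Cox6a1: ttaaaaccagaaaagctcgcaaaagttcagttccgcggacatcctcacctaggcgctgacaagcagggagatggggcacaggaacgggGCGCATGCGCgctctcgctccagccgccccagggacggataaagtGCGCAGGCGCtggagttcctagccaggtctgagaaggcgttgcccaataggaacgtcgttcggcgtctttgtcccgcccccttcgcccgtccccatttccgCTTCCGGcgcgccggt
Sdhd: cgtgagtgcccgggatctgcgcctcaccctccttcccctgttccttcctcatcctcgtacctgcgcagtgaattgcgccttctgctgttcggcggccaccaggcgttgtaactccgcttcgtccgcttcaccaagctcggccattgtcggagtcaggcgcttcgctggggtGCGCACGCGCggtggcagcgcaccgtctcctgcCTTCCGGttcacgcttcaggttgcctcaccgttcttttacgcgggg
Atp5h: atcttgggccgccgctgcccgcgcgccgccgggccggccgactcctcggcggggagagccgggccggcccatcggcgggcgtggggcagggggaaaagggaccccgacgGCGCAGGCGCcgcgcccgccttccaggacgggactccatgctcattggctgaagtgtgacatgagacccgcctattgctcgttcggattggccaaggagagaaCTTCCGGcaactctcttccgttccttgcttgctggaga
Atp5k: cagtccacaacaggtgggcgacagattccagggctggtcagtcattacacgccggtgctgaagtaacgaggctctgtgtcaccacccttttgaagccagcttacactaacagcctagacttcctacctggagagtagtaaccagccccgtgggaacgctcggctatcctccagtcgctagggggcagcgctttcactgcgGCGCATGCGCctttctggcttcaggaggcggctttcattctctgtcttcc
These stretches lie at chr7:140900447-140900696 (minus strand), chr7:30183921-30184170 (plus strand), chr5:115348959-115349208 (minus strand), chr9:50603850-50604099 (minus strand), chr11:115419920-115420169 (minus strand) and chr5:108434400-108434649 (minus strand) of GRCm38. They are counted from the RefSeq start in that table; the GENCODE starts differ for all but Cox8b, and the stretches of Cox7a1, Cox6a1, Atp5h and Atp5k run past the GENCODE start into the gene.

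The subunits encoded in mitochondrial DNA, which are assembled with the nuclear-encoded ones, overlapped between injured and uninjured skin in their summed level. Of 13 such genes 8 were tested: none was called in Nf1-KO skin (1 at an unadjusted p under 0.05, edgeR), with a median log2 fold change of -0.36, and 2 rose and 1 fell in control skin, with a median of -0.02. Among all genes 19.1% were called higher and 18.4% lower in Nf1-KO skin, and 22.8% higher and 32.5% lower in control skin. In Nf1-KO skin all injured libraries lay above all uninjured ones for 0 of the 8, against 23.6% of all genes, and below for 1, against 27.9%. In control skin they lay above for 2, against 25.8%, and below for 1, against 36.6%. The summed level of the 13 genes was 8908, 14179.5 and 8863 TMM CPM in Nf1-KO injured libraries, against 13387, 13172 and 14855 in Nf1-KO uninjured libraries. The control sums were 8605, 15435 and 11548 TMM CPM after injury, against 10519.9, 10965 and 13138 without injury. The groups overlapped in both genotypes, and Nf1-KO injured 1 and 3 and control injured 1 the libraries with the high ribosomal RNA-like share, were the lowest of the 12. In control skin mt-Nd6 changed by 0.82 ± 0.22 and mt-Nd4 by 0.61 ± 0.25 on the log2 scale, and mt-Nd5 by -0.68 ± 0.27. The genes mt-Nd4l, mt-Co2, mt-Co3, mt-Atp6 and mt-Atp8 were at or near 0 counts in all 12 libraries, so the deposited counts do not give the level of their transcripts. With the length trend over all genes removed, as described below, 5 of the 8 fell in each genotype. That fit called 4882 of all 23635 genes lower in Nf1-KO skin and 8447 lower in control skin.

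**Figure D4:**
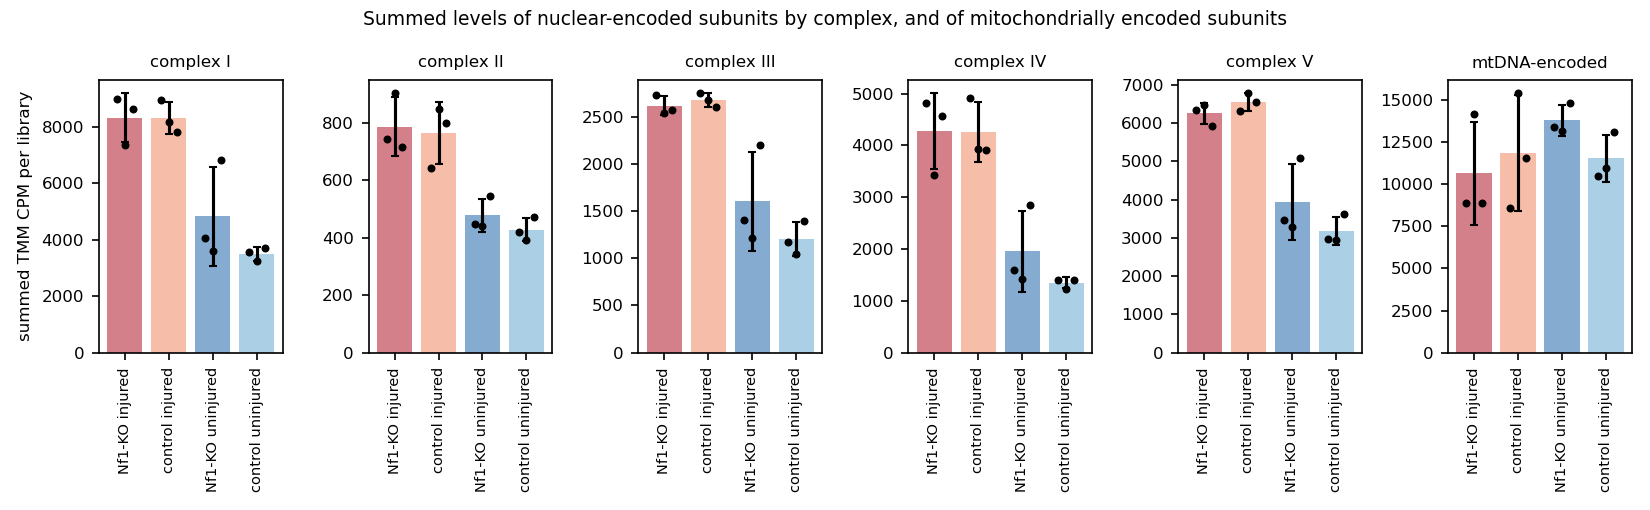
Bars are group means of the summed TMM CPM of each complex's nuclear-encoded subunits and, at right, of the mitochondrially encoded subunits; error bars are SD of 3 libraries, points are libraries, and each panel has its own axis from 0. The 2 injured groups stand above the 2 uninjured groups in all 5 complexes, with Nf1-KO uninjured 3 as the high point of its group, while the right panel shows overlapping groups.

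By complex, the ratio of the injured to the uninjured mean sum was highest for complex IV, at 2.19 in Nf1-KO and 3.16 in control skin. Complex V had the lowest ratio in Nf1-KO skin, 1.59, and complex II the lowest in control skin, 1.78. Complex I summed to 8321 ± 869 TMM CPM in Nf1-KO injured and 8298 ± 574 in control injured libraries, against 4817 ± 1741 in Nf1-KO uninjured and 3501 ± 246 in control uninjured libraries (SD, n = 3 each).

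Subunits and carriers that the choice by symbol left out mostly rose as well. Of 7 tested genes, 6 rose in Nf1-KO skin (all but Cycs, cytochrome c) and 7 in control skin. Cox4i1, the main isoform of the complex IV subunit 4, changed by 1.14 ± 0.28 in Nf1-KO and 1.80 ± 0.29 in control skin on the log2 scale. Cox4i2, its oxygen-responsive isoform, changed by 2.52 ± 0.40 in Nf1-KO and 1.71 ± 0.40 in control skin. Ndufab1, the mitochondrial acyl carrier protein in complex I, changed by 0.98 ± 0.19 in Nf1-KO and 1.48 ± 0.19 in control skin. The cytochrome c1 gene Cyc1 changed by 0.70 ± 0.25 in Nf1-KO and 1.04 ± 0.25 in control skin.

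Assembly factors build the complexes without staying in them. Their counts stand beside 19.1% of all genes called higher and 18.4% lower in Nf1-KO skin, and 22.8% higher and 32.5% lower in control skin. For complex I, 5 of 15 rose in Nf1-KO skin, and 6 rose and 3 fell in control skin. Ndufaf8 changed by 1.19 in Nf1-KO and 1.55 in control skin on the log2 scale. For complexes II and III, 3 of 10 rose in Nf1-KO skin, and 5 rose and 1 fell in control skin. For complex IV, 10 of 22 rose in Nf1-KO skin, and 11 rose and 1 fell in control skin. The copper chaperone Cox17 changed by 1.23 in Nf1-KO and 1.65 in control skin, and Cmc2 by 1.64 in Nf1-KO and 2.15 in control skin. For complex V, 1 of 4 rose in Nf1-KO and 2 of 4 in control skin. Their median log2 fold changes by complex lay between 0.13 and 0.44 in Nf1-KO and between 0.33 and 0.48 in control skin, all below the subunits' medians.

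Of 16 regulators of mitochondrial genes, 1 rose and 1 fell in Nf1-KO skin, and 2 rose and 3 fell in control skin. These are smaller shares than over all genes, of which 19.1% were called higher and 18.4% lower in Nf1-KO skin. In control skin the shares of all genes were 22.8% higher and 32.5% lower. The coactivator gene Ppargc1a, a driver of mitochondrial biogenesis, had 4.04, 5.78 and 3.27 TMM CPM in Nf1-KO injured libraries, against 6.45, 4.06 and 4.88 in Nf1-KO uninjured libraries. In control skin Ppargc1a stood at 5.33, 3.48 and 4.61 TMM CPM after injury, against 9.97, 7.37 and 5.17 without it. It did not pass the test in either genotype, with log2 fold changes of -0.23 ± 0.34 in Nf1-KO and -0.74 ± 0.34 in control skin, and Nrf1, Esrra and Tfam were not called either. Gabpa, a subunit of the ETS factor GABP, fell in control skin with a log2 fold change of -0.90 ± 0.26, and had -0.43 ± 0.26 in Nf1-KO skin. The lipid-sensing receptor genes changed in opposite directions: Ppara by -1.65 ± 0.33 in Nf1-KO and -2.12 ± 0.34 in control skin, and Ppard by 1.62 ± 0.40 in Nf1-KO and 2.04 ± 0.40 in control skin.

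Many subunit transcripts are short, and fewer of the longer ones rose. Of 38 subunits under 750 bases, 34 (89.5%) rose in Nf1-KO and 36 (94.7%) in control skin, against 48.7% and 61.5% of all 631 protein-coding genes of that length, in the same order. From 750 to under 1500 bases, too, a larger share of subunits than of all protein-coding genes rose in both genotypes. From 1500 to under 2500 bases this held in control skin only. There 3 of 13 subunits (23.1%) rose in Nf1-KO skin, against 23.6% of all 3985 protein-coding genes of that length. In control skin 8 of the 13 (61.5%) rose, against 30.2%. Of 5 subunits of 2500 bases or more, 2 rose in Nf1-KO and 3 in control skin, against 19.3% and 19.6% of all protein-coding genes of that length. Across the 81 genes, Spearman's rho between length and log2 fold change was -0.55 in Nf1-KO and -0.60 in control skin, against -0.15 and -0.24 across 17225 protein-coding genes. These correlations run across genes of the same libraries, which are not independent replicates, and carry no test.

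**Figure D5:**
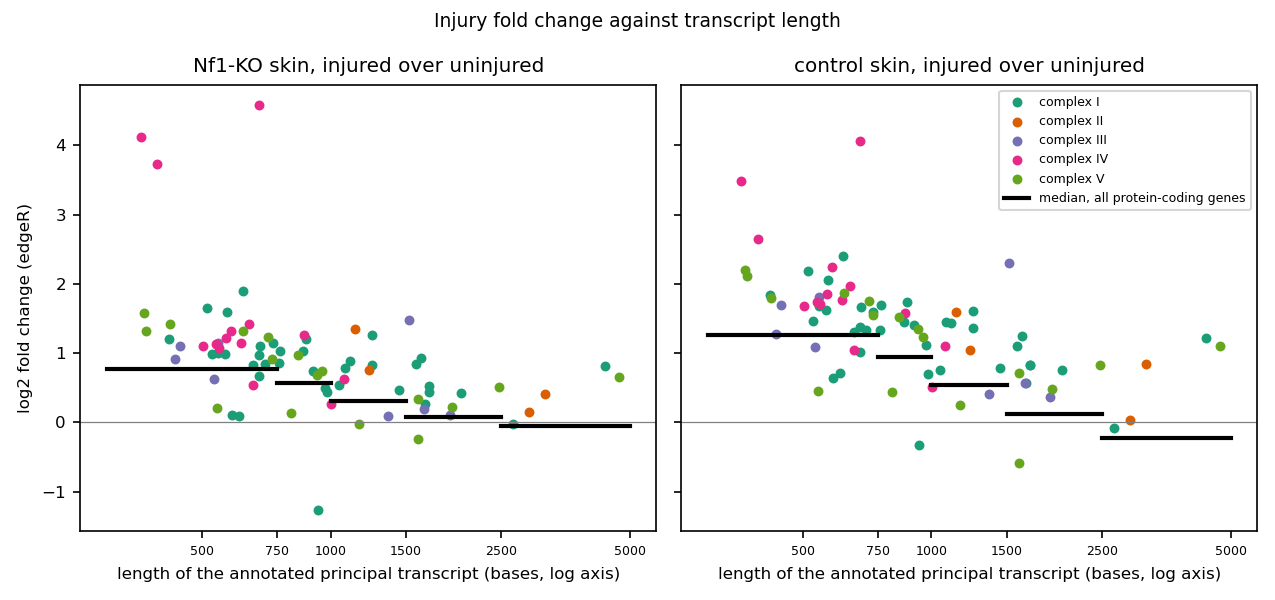
Each point is a subunit (Cox7b2 is left out), with the length of its annotated principal transcript on a log axis and its injured over uninjured log2 fold change, Nf1-KO skin at left and control skin at right; black bars are medians of all protein-coding genes tested in 5 length classes. The bars fall from left to right, and most subunits under 1000 bases lie above the bar of their class.

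When the length trend over all genes was removed from each library, a step added after seeing the data, 36 subunits rose and 4 fell in Nf1-KO skin, and 49 rose and 5 fell in control skin. Of all 23635 genes, that fit called 4187 higher and 4882 lower in Nf1-KO skin, and 4422 higher and 8447 lower in control skin. The subunits' medians were then 0.39 in Nf1-KO and 0.48 in control skin, 0.55 and 0.83 above the medians of all genes in the same fits. Of the genes called higher before, 34 of 56 in Nf1-KO skin and 49 of 67 in control skin were still called higher. Those that fell were Cox7b2, Ndufa4l2 and Ndufa6 in both genotypes, Ndufa4 in Nf1-KO skin, and Atp5l and Atp5s in control skin. Ndufa4 had log2 fold changes of -0.51 in Nf1-KO and -0.42 in control skin in that fit, and Cox7a2 of -0.053 in Nf1-KO and -0.033 in control skin. The short-transcript share of counts was 6.67% to 8.46% in injured libraries and 4.4% to 7.88% in uninjured ones.

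Lists of other cell types that whole skin can hold also changed with injury. Over all genes, 19.1% were called higher and 18.4% lower in Nf1-KO skin, and 22.8% higher and 32.5% lower in control skin. All 12 growing hair follicle genes rose in both genotypes, to a sum of 9663 to 31119 TMM CPM in Nf1-KO injured and 11679 to 20353 in control injured libraries, against 77.9 to 143 in Nf1-KO uninjured and 70.3 to 85.5 in control uninjured libraries. Of 12 adipocyte genes, 11 rose in Nf1-KO and 12 in control skin, and their sum was 2716 to 3218 TMM CPM in Nf1-KO injured and 1657 to 5071 in control injured libraries, against 164 to 508 in Nf1-KO uninjured and 278 to 601 in control uninjured libraries. All 8 macrophage genes rose in Nf1-KO and 7 of 8 in control skin, with sums of 540.3 to 1438 TMM CPM in Nf1-KO injured and 415 to 619 in control injured libraries, against 124 to 171 in Nf1-KO uninjured and 99.6 to 128 in control uninjured libraries. All 8 cell cycle genes rose in both genotypes, and 7 of 8 basal keratinocyte genes fell in both. Of 5 tested brown adipocyte genes, none was called in Nf1-KO skin (1 at an unadjusted p under 0.05, edgeR), and 2 rose and 1, the uncoupling protein gene Ucp1, fell in control skin. The brown adipocyte sum was 76.7 to 114 TMM CPM in Nf1-KO injured and 73.6 to 131 in control injured libraries, against 50.6 to 107 in Nf1-KO uninjured and 33.5 to 67.6 in control uninjured libraries. The part of these tissues in the rise of the subunits was not tested.

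Between genotypes no subunit passed the test. In injured skin 0 of 81 were called, 1 (Cox7b2) had an unadjusted p under 0.05 in edgeR, and limma voom and DESeq2 also called 0. Of all 23635 genes edgeR called 0% in that comparison, with 2532 at an unadjusted p under 0.05. Over all genes limma voom called 1 higher and 0 lower, and DESeq2 called 63 higher and 61 lower of 21722. All Nf1-KO injured libraries lay above all control injured ones for 1 subunit, against 6.37% of all genes, and below for 2, against 2.67%. The subunits' median log2 fold change, Nf1-KO over control, was 0.01 in injured skin, against 0.12 over all genes. Cox7b2 had 1, 2 and 8 counts in Nf1-KO injured libraries, against 0 in each control injured library, at least 3.72-fold higher with a floor of 3 counts over the group, and its adjusted p was 0.355 (edgeR). Ndufa13, another accessory subunit of complex I, had the next smallest p among the subunits, with 386, 253 and 407 TMM CPM in Nf1-KO injured libraries, against 321, 289.7 and 257 in control injured libraries. The Ndufa13 groups overlapped, and its log2 fold change was 0.27 ± 0.26.

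In uninjured skin 0 of 81 subunits were called by edgeR, limma voom or DESeq2, while 35 had an unadjusted p under 0.05 in edgeR, against 1971 of 23635 genes in all. The median log2 fold change was 0.48, against -0.04 over all genes, and 74 of 81 were positive. Of all genes edgeR called 0.0254% higher and 0.00423% lower, 0.0296% together. With limma voom 1 gene was called higher and 0 lower, and with DESeq2 35 higher and 25 lower of 20759. All Nf1-KO uninjured libraries lay above all control uninjured ones for 18 subunits, against 8.79% of all genes, and below for 2, against 6.04%. Sdhc had the smallest p, with 80.9, 87.7 and 114 TMM CPM in Nf1-KO uninjured libraries, against 67.3, 55 and 69 in control uninjured libraries. Its groups did not overlap, and its log2 fold change was 0.56 ± 0.19, adjusted p = 0.537 (edgeR). Ndufb11, next in order and X-linked, had 110.0, 105 and 200.1 TMM CPM in Nf1-KO uninjured libraries, against 83.6, 83.6 and 87.9 in control uninjured libraries. The groups were again apart, with Nf1-KO uninjured 3 the highest by a wide margin. The log2 fold change of Ndufb11 was 0.70 ± 0.25, adjusted p = 0.537 (edgeR).

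The height of the subunits in Nf1-KO uninjured skin rested largely on 1 library. Nf1-KO uninjured 3 was the highest of its group for 78 of 81 subunits (96.3%), against 41.7% of all genes tested. Its level was a median of 1.76 times the mean of the other 2 libraries over the subunits, and 1.02 times over all genes. Without it, the median log2 fold change between genotypes in uninjured skin was 0.13, and the injury comparison in Nf1-KO skin called 65 subunits higher with a median of 1.18. With the length trend removed and all libraries kept, the genotype median in uninjured skin was 0.11. Nf1-KO uninjured 3 had 7.45% of its counts in short transcripts, against 5.24% and 6.51% in Nf1-KO uninjured 1 and 2. Control uninjured 1 had a share of 7.88% and a subunit sum of 9551 TMM CPM. The part of short transcripts in the height of Nf1-KO uninjured 3 was not tested.

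The difference between the injury responses, Nf1-KO minus control, was called for 0 of 81 subunits, with 2 at an unadjusted p under 0.05 in edgeR and 0 called by limma voom or DESeq2. Of all genes edgeR called 0%, with 2541 at an unadjusted p under 0.05. Over all genes limma voom called 0, and DESeq2 called 7 higher and 30 lower of 22685. The median difference was -0.47 on the log2 scale, against 0.17 over all genes. The 2 subunits were Cox7b2 and Ndufb5, an accessory subunit of complex I. Ndufb5 had 200.4, 172 and 189 TMM CPM in Nf1-KO injured libraries, against 91.2, 86.5 and 148 in Nf1-KO uninjured libraries. Control libraries held 189, 224 and 187 TMM CPM of Ndufb5 after injury, against 79.2, 62.8 and 77.7 without it. It rose in both genotypes, although in Nf1-KO skin it was not called without Nf1-KO uninjured 1 (0.66) or 2 (0.63), and the difference was -0.66 ± 0.30 on the log2 scale, adjusted p = 0.459 (edgeR). Without Nf1-KO uninjured 3 the median difference over the subunits was -0.15.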

How the data were processed

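Per the labels, whole skin was extracted (RNeasy Fibrous Tissue), 10 ng of RNA was amplified by Smart-Seq V4, and Nextera XT libraries were made, a method that does not mark strand. The authors deposited raw read counts per Ensembl gene, with no scaling. HTSeq 0.5.3, STAR 2.5.2b, HOMER, SAMtools, DESeq2 and the build mm10 appear in the submitters' processing notes without a role, and neither annotation nor strand setting is given in the sources used here. Of 53379 IDs, 53274 matched GENCODE M21 (GRCm38), and 1 column of no listed sample was not used.

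One edgeR 4.0.16 model (R 4.3.3) with 4 group means held the 12 libraries. TMM scaling, filterByExpr (count minimum 10) and the robust quasi-likelihood test were used, 2-sided, and Benjamini-Hochberg adjustment ran over the 23635 genes kept. The procedure was tested on simulated data. Standard errors were taken as the log2 fold change over the square root of F. Lengths are those of the principal transcript with the best support. The labels do not say that replicates are separate animals, so p-values measure the spread between these samples, which may be technical; counting floors cover counting error only. Alternatives were median-of-ratios scaling, other filters, a replicate block, a ribosomal RNA-like covariate, the compared groups alone, limma 3.58.1 (voom), DESeq2 1.42.0 and libraries left out. Named were, per complex and injury comparison, up to 3 called genes of largest rise or fall, the most abundant gene per kb, tissue isoforms with their partners, the genes of smallest p between genotypes, and Cox8c. Other genes named for contrast (Ndufs1, Ndufv1, Sdha, Uqcrfs1, Atp5b and others not called) were chosen after their values were seen. The members and all lists were chosen with earlier results of these data known. The list of citric acid cycle enzymes is not reported here. Exons of 28 of the 82 genes overlap another gene, antisense for 25, and 21 have near-identical copies (BLAST+ 2.17.0, 95% identity), so their counts are less certain.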

Additional observations from a re-analysis of the deposited data

How the results depend on the processing

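Under other scaling, filters, tools and designs the counts of subunits called higher stayed within 1.5 times of 56 in Nf1-KO skin and 67 in control skin. Leaving out 1 library at a time gave 38 to 65 higher and 1 to 3 lower in Nf1-KO skin, and 65 to 73 higher and 1 to 2 lower in control skin. The 38 came without Nf1-KO uninjured 2, where 2997 of all 25118 genes were called higher in Nf1-KO skin. Without Nf1-KO uninjured 3, which gave the 65 in Nf1-KO skin, 4853 of all 25425 were. In control skin the 65 came without control uninjured 2, where 4259 of all 24381 genes were called higher. The genotype comparisons and the difference between injury responses stayed at 0 to 0 subunits. Among the named subunits, those losing a call in Nf1-KO skin when 1 library was left out were Atp5g1 (0.44 to 0.65), Atp5g2 (0.72 to 0.83), Cox7a2 (0.38 to 0.62), Cox7a2l (0.45 to 0.62), Ndufb11 (0.58 to 0.66), Ndufb5 (0.63 to 0.66), Cox6b2 (1.02), Uqcr11 (0.84) and Cox7b2 (-2.36), on the log2 scale, mostly without Nf1-KO uninjured 1 or 2. In control skin it was Ndufa4 (0.71). Under the covariate for ribosomal RNA-like counts, Ndufa4 in control skin and Atp5g1, Atp5g2, Cox6a1, Cox6b2, Cox7a2, Cox7a2l and Ndufb11 in Nf1-KO skin were not called. Without control uninjured 1 and 2, which left 1 control uninjured library, the subunits' median in control skin was 1.24, against -0.23 over all genes. With the compared groups alone, 2 subunits fell in control skin, and 5736 of all 20560 genes were called lower. Without a filter, 1 subunit was called higher in Nf1-KO over control uninjured skin, and 170 of all 49676 genes were. In the alternatives added after seeing the data, the fit without the 3 injured libraries of high ribosomal RNA-like share called 18 higher and 1 lower in Nf1-KO skin, where 1 injured library was left and is assumed to vary like the other groups. With the length trend removed, 36 were higher and 4 lower in Nf1-KO skin and 5 lower in control skin, and Ndufa4 (-0.51 in Nf1-KO, -0.42 in control skin) and Cox7a2 (-0.053 in Nf1-KO, -0.033 in control skin) turned sign. For the other moves the cause was not tested. The replicate block gave 56 higher and 2 lower in Nf1-KO and 68 higher and 1 lower in control skin; same-numbered libraries of different groups correlated at -0.42 to 0.38 in their deviations, so the numbers do not pair the samples. Depth limits Cox7b2 and Cox8c, with at most 44 counts in a library.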

Other observations

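Among 6 differentiating keratinocyte genes, 3 fell in Nf1-KO skin, and 1 rose and 2 fell in control skin. Over all genes the shares were 19.1% higher and 18.4% lower in Nf1-KO skin, and 22.8% higher and 32.5% lower in control skin.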
